A study of Caenorhabditis elegans with 12 samples.

Results

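Early Caenorhabditis elegans embryos of a strain labelled met-2(n4256) III were compared with embryos of the wild type N2 (Bristol) by sequencing of total RNA depleted of ribosomal RNA. All columns of the gene and repeat count tables that carry the name of met-2 alone or of the wild type were used, which are 6 of the 12 libraries of the series. They comprise 3 libraries labelled met-2 and 3 libraries of N2. Both groups came from worms grown at 20 °C, and the embryos were taken 60 to 65 h after synchronization as first-stage larvae and described as having 1 to 300 cells. The other 6 libraries, of set-25(n5021) III and of the double mutant that joins both alleles, entered the same fit to share its estimate of spread. The labels state 2 independent biological replicates where 3 libraries are listed, so p-values measure the spread between these libraries, which may in part be technical.

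MET-2 is a SETDB1-like methyltransferase that places mono- and dimethylation on lysine 9 of histone H3, a mark of heterochromatin. SET-25 is the enzyme of the worm embryo that adds trimethylation to the same lysine, and LIN-65 and ARLE-14 are cofactors of MET-2. Silencing by these marks is known for transposons, satellite and other simple repeats, and for genes kept off in particular tissues.

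Gene counts per library were 23543963, 25667207 and 25551756 in the libraries labelled met-2 (a, b and c), against 52683919, 41296154 and 41033729 in N2. Repeat counts lay between 250679 and 282075 in the met-2 group, against 477369 to 622244 in N2. Spearman correlations across genes within a group ran from 0.987 to 0.993 among the met-2 libraries, against 0.991 to 0.995 among the N2 ones. Levels below are counts per 1000000 (CPM) after TMM scaling, which corrects library totals for composition, and are given for libraries a, b and c in that order. Log2 changes are the libraries labelled met-2 minus N2, and adjusted p-values are from the quasi-likelihood test of edgeR over all genes or all repeat families tested. A number alone in brackets after a gene or family is its log2 change. A gene or family is said to have risen or fallen where the adjusted p was under 0.05.

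The RNA of met-2 itself was hardly reduced in the libraries labelled met-2. The gene (R05D3.11, WBcel235 chromosome III, 8375300 to 8380848) had 215, 274 and 313 CPM in the libraries labelled met-2, against 314, 330.1 and 320.1 CPM in N2. The groups did not overlap, but library c of the labelled group lay just below the lowest N2 library, and the log2 change was -0.27 (SE 0.16, adjusted p = 0.0757). Without library c it was -0.401 (adjusted p = 0.0128), and with library totals in place of TMM scaling it was 0.00466 (adjusted p = 0.977). Under the same allele name, the double mutant had 52.4 ± 1.65 CPM of met-2 RNA (SD, n = 3), a log2 change of -2.62 against N2 (adjusted p = 5.00e-07). The sources used here do not give which bases the allele lacks, so the level alone does not show which allele these libraries carry.

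The partners of met-2 were lower than in N2. arle-14 had 25.4, 22.6 and 26.6 CPM in the libraries labelled met-2, against 48.3, 42.2 and 51.7 CPM in N2, a log2 change of -0.93 (SE 0.11, adjusted p = 4.75e-04). lin-65 had 112, 102 and 138 CPM in the libraries labelled met-2, against 183, 193 and 218 CPM in N2, and changed by -0.76 log2 units (SE 0.15, adjusted p = 0.00121). set-25, which the label does not name as mutated, had 77.2, 109 and 115 CPM in the libraries labelled met-2, against 181, 185 and 218 CPM in N2, and changed by -0.95 log2 units (SE 0.20, adjusted p = 1.00e-04). For all 3 genes every library labelled met-2 lay below every N2 library, as the plot of these genes by library shows. The same held for 4971 of the 14260 genes tested.

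**Figure D1:**
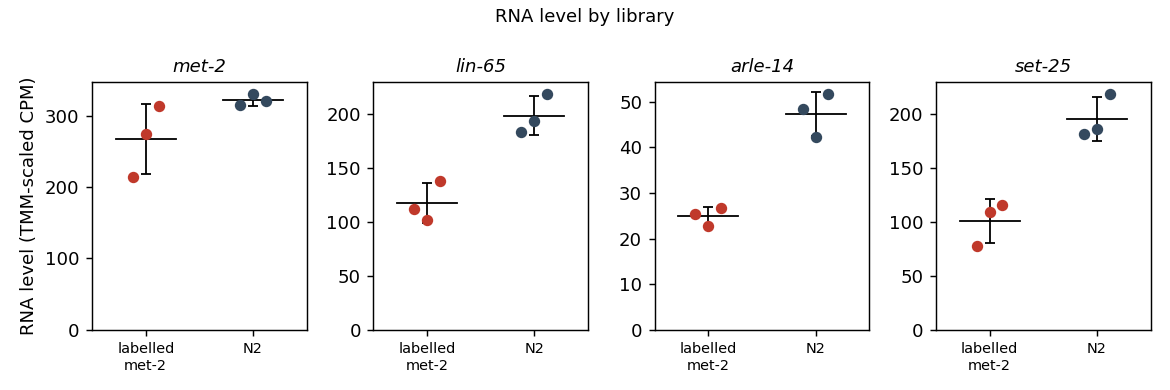
RNA level of met-2, lin-65, arle-14 and set-25 in TMM-scaled CPM; points are libraries, horizontal lines are means and bars are 1 SD (n = 3). For met-2 the libraries labelled met-2 averaged 267 CPM and the N2 libraries 322 CPM, while arle-14 averaged 24.9 CPM in the libraries labelled met-2 and 47.4 CPM in N2.

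Across the genome, 5017 of 14260 tested genes rose (35.2%) and 4219 fell (29.6%) in the libraries labelled met-2. The rises were larger than the falls. The median log2 change was 2.07 among genes that rose and -0.75 among those that fell, and 1502 genes rose at least 8-fold where 11 fell at least 8-fold. Falls were concentrated among abundant RNAs. Of 2699 genes with a mean of 100 CPM or more over both groups, 302 rose and 1381 fell, and of 3732 genes between 1 and 10 CPM, 2152 rose and 444 fell. With library totals alone the split was 6250 genes higher and 2440 lower, and the median change of all tested genes was 0.32 in place of 0.05. Members of large families, such as cuticle collagens of the col- series, nuclear hormone receptors and F-box genes, made up 1305 tested genes, of which 491 rose and 313 fell. They are left out of the genes named below, apart from those in the lists. The other 12955 tested genes held 4526 rises and 3906 falls.

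Marker RNAs of developmental stage differed between the libraries labelled met-2 and N2. Over all tested genes 35.2% rose and 29.6% fell, with 45.2% falls at 10 to 100 CPM and 51.2% at 100 CPM or more. Of 16 maternal germline RNAs, loaded into the oocyte and cleared as the embryo divides, 14 fell (87.5%) and none rose. Their median log2 change was -1.60. mex-5, which encodes a polarity factor of the one-cell embryo, had 94.2, 121 and 112 CPM in the libraries labelled met-2, against 391, 410.5 and 568 CPM in N2, and changed by -2.06 log2 units (SE 0.20, adjusted p = 1.08e-05). pie-1, the repressor of transcription in the germline precursors, changed by -2.29 log2 units (SE 0.21, adjusted p = 3.79e-06). In set-25, mex-5 and pie-1 each differed from N2 by -2.28 (adjusted p = 7.48e-06 and 3.94e-06). In the double mutant they differed by -0.07 and -0.23 (adjusted p = 0.811 and 0.356). Summed over the list, the level was 1830 to 2188 CPM in the libraries labelled met-2, against 4574 to 5817 CPM in N2, so the groups were apart in every library. Of 15 early zygotic genes, switched on in the first rounds of embryonic transcription, 14 fell, with -1.79 for the Notch-target gene ref-1 and -1.72 for the forkhead gene pes-1. Their summed level was 1510 to 2039 CPM in the libraries labelled met-2, against 2368 to 2680 CPM in N2.

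Genes of differentiated cells, which come on as embryos leave the early stages, went mostly the other way. Of 22 such markers, 17 rose (77.3%) and 5 fell (22.7%), beside 35.2% and 29.6% over all tested genes. The pharyngeal myosin gene myo-1 had 63.1, 75.2 and 29.7 CPM in the libraries labelled met-2, against 0.436, 0.294 and 0.328 CPM in N2, up by 7.28 log2 units (SE 0.44, adjusted p = 4.32e-05). myo-2, the other pharyngeal myosin heavy chain, changed by 5.88 log2 units (SE 0.44, adjusted p = 1.17e-04). In set-25 and the double mutant, myo-1 differed from N2 by 5.33 and 3.385 log2 units (adjusted p = 4.59e-04 and 0.0256). The 5 that fell were the synaptobrevin gene snb-1 (-2.33), the actin gene act-4 (-1.34), unc-119 (-1.21), lin-26 (-1.03), an epidermal transcription factor, and elt-2 (-0.57), the GATA factor of the gut. The call of elt-2 was lost with library totals (adjusted p = 0.111). The summed level of this list overlapped, with 1283 to 2045 CPM in the libraries labelled met-2, against 1449 to 1813 CPM in N2. In whole embryos, fewer cells of a type and less RNA per cell cannot be told apart. The part of embryo age in the results below was not tested. Adult yolk RNAs (vit-1 to vit-6) summed to 0.570 to 1.04 CPM in the libraries labelled met-2, against 0.573 to 2.05 CPM in N2, and sperm RNAs to 0.890 to 2.27 CPM in the libraries labelled met-2, against 1.04 to 1.18 CPM in N2, and no tested member of either list was called.

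Among genes outside large families with a mean of at least 1 CPM in both groups and no overlap between groups, the highest log2 changes ran from 6.0 for lec-5 to 4.85 for him-4. Genes under that mean in N2, such as the myosin gene myo-1 above and 2 aspartyl proteases below, had higher ones. lec-5, a galectin gene, had 129, 101 and 48.7 CPM in the libraries labelled met-2, against 1.45, 2.46 and 0.409 CPM in N2, and rose by 6.0 log2 units (SE 0.83, adjusted p = 2.90e-05). lin-14, which encodes the nuclear protein that sets first-larval-stage fates, had 51.8, 69.5 and 29.7 CPM in the libraries labelled met-2, against 1.02, 1.53 and 0.546 CPM in N2, and rose by 5.61 log2 units (SE 0.54, adjusted p = 2.76e-05). For both genes, chosen to have no overlap, library c was the lowest of its group in both genotypes. csq-1, the calcium store protein calsequestrin of muscle, rose by 5.53 log2 units (SE 0.67, adjusted p = 3.50e-05). vha-5, a membrane subunit of the proton pump that acidifies vesicles in epidermis and excretory canal, had 84.4, 85.7 and 43.8 CPM in the libraries labelled met-2, against 1.68, 2.38 and 0.710 CPM in N2, and rose by 5.48 log2 units (SE 0.59, adjusted p = 1.91e-05). pept-1, the gut transporter of small peptides, had 43.7, 39.0 and 21.2 CPM in the libraries labelled met-2, against 1.29, 1.47 and 0.464 CPM in N2, and rose by 5.0 log2 units (SE 0.58, adjusted p = 2.67e-05). him-4, the extracellular matrix protein hemicentin, had 169, 178 and 80.2 CPM in the libraries labelled met-2, against 5.19, 5.78 and 3.82 CPM in N2, and rose by 4.85 log2 units (SE 0.41, adjusted p = 3.51e-05). The other 4 of the 10 highest were sups-1 (5.88), the cathepsin A-like gene ctsa-2 (5.36), the neprilysin-like gene nep-17 (5.23) and abu-13 (4.86). In all 10, library c was the lowest of the 3 libraries labelled met-2, and in N2 it was the lowest as well.

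Under the same limits, the lowest log2 changes ran from -3.34 for wip-1 to -2.67 for puf-7. wip-1, a homologue of WASP-interacting protein in actin assembly, had 3.37, 3.73 and 6.84 CPM in the libraries labelled met-2, against 44.4, 39.6 and 57.6 CPM in N2, and fell by 3.34 log2 units (SE 0.35, adjusted p = 3.84e-06). sip-1, a small heat shock protein of embryos, had 228, 213 and 248 CPM in the libraries labelled met-2, against 1869, 1535 and 2309 CPM in N2, and fell by 3.05 log2 units (SE 0.18, adjusted p = 2.04e-06). hmg-1.1, a chromatin protein with HMG boxes, had 767, 672 and 736 CPM in the libraries labelled met-2, against 4987, 4794 and 5769 CPM in N2, and fell by 2.84 log2 units (SE 0.10, adjusted p = 3.40e-06). These are factors of actin, protein folding and chromatin. pfn-1, the actin-binding protein profilin, had 30.8, 33.8 and 36.7 CPM in the libraries labelled met-2, against 204, 186 and 261 CPM in N2, and fell by 2.68 log2 units (SE 0.16, adjusted p = 7.29e-07). sygl-1, a Notch target that keeps germline stem cells, had 1.73, 1.97 and 2.24 CPM in the libraries labelled met-2, against 16.9, 13.2 and 17.6 CPM in N2, and fell by 3.0 log2 units (SE 0.17, adjusted p = 7.51e-06). The remaining 5 were the prolyl isomerase gene fkb-2 (-2.88), the ubiquitin-conjugating enzyme gene ubc-13 (-2.81), serp-1.1 (-2.80), cyk-7 (-2.72) and the PUF-family RNA-binding protein gene puf-7 (-2.67).

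**Figure D2:**
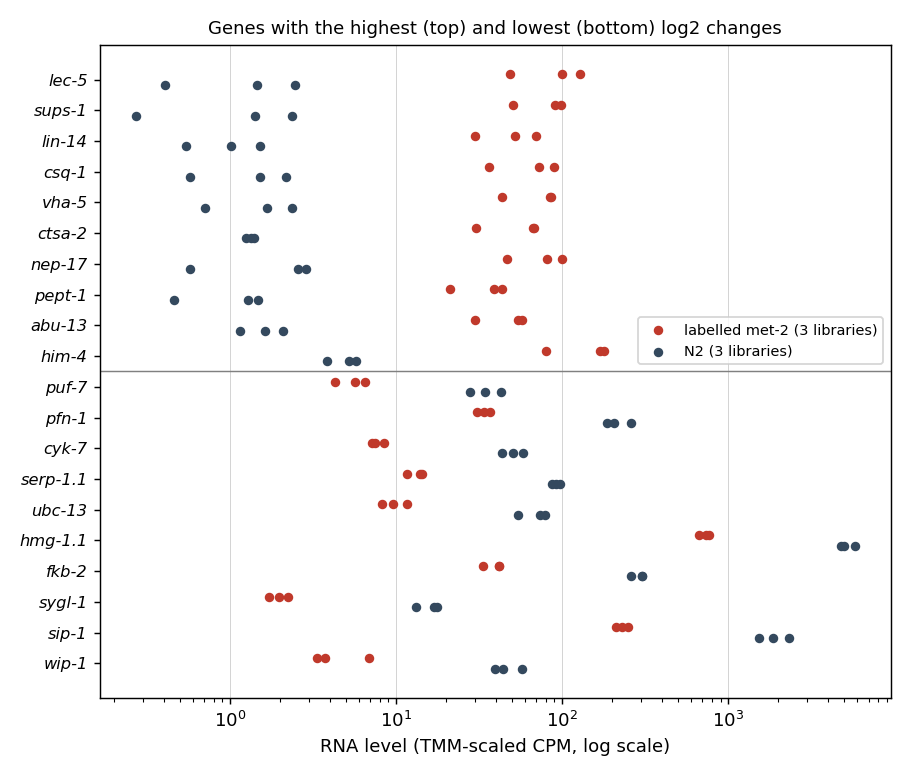
Level in TMM-scaled CPM (log axis) of the 10 genes with the highest log2 changes, in the upper rows, and the 10 with the lowest, in the lower rows, among genes of at least 1 CPM in both groups and without overlap; each point is 1 library, with the libraries labelled met-2 above those of N2 in each row. lec-5 reached 129 CPM in the libraries labelled met-2 and 2.46 CPM in N2, and wip-1 reached 6.84 CPM in the libraries labelled met-2 and 57.6 CPM in N2.

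In CPM, not scaled by gene length, the 5 largest gains and losses among such genes were as follows. dpy-14, a cuticle collagen, averaged 2554 ± 757 CPM in the libraries labelled met-2 and 679 ± 186 CPM in N2 (SD, n = 3 each), up by 1.91 log2 units (SE 0.35, adjusted p = 9.36e-05). lam-3, a laminin alpha chain of basement membranes, averaged 2475 ± 274 CPM in the libraries labelled met-2 and 1038 ± 231 CPM in N2, up by 1.25 log2 units (SE 0.22, adjusted p = 3.32e-04). The others were the collagen gene dpy-17 (1.67), the megalin-like endocytic receptor gene lrp-1 (1.78) and calu-1 (1.07), which encodes the calcium-binding protein calumenin. Besides hmg-1.1 and sip-1, the largest losses in CPM were those of htz-1, cyb-3 and tbb-2. htz-1, the histone variant H2A.Z, had 519.9, 529.6 and 520.3 CPM in the libraries labelled met-2, against 2459, 2501 and 2710 CPM in N2, and fell by 2.29 log2 units (SE 0.04, adjusted p = 1.01e-06). cyb-3, a B-type cyclin, fell by 1.78 log2 units (SE 0.25, adjusted p = 2.10e-05). The tubulin gene tbb-2 fell by 1.23 log2 units (SE 0.19, adjusted p = 2.16e-04).

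Most listed genes of cilia and of neurotransmission rose. Of 41 genes of cilia and intraflagellar transport, the system that builds the sensory endings of neurons, 38 rose and none fell. Their median log2 change was 1.88, against 35.2% rises and a median of 0.05 over all genes. Of all tested genes at 1 to 10 CPM, 57.7% rose, at a median of 1.03. Among protein-coding genes whose exons cover 2000 to under 4000 bases, 76.9% rose at 1 to 10 CPM and 36.0% at 10 to 100 CPM. Whether this list, or those of neurotransmission below, differs from genes of like level and length was not tested. che-11, a subunit of the transport particle, had 22.0, 21.9 and 12.2 CPM in the libraries labelled met-2, against 2.26, 2.04 and 0.901 CPM in N2, and rose by 3.42 log2 units (SE 0.49, adjusted p = 1.57e-04). xbx-1, a dynein light intermediate chain, had 1.88, 2.37 and 1.60 CPM in the libraries labelled met-2, against 0.145, 0.402 and 0 CPM in N2. The summed level of the list was 624 to 871 CPM in the libraries labelled met-2, against 332 to 446 CPM in N2. Of 20 genes that make or carry neurotransmitters, 16 rose and 1 fell, at a median of 2.26. eat-4, the vesicular glutamate transporter, had 1.92, 3.19 and 1.32 CPM in the libraries labelled met-2, against 0.0208, 0.0268 and 0.191 CPM in N2, and rose by 4.76 log2 units (SE 0.64, adjusted p = 2.39e-04). unc-46, which sends the GABA transporter to vesicles, had 1 count over the 3 N2 libraries and 0.823, 1.29 and 0.712 CPM in the libraries labelled met-2. tdc-1, the tyrosine decarboxylase of tyramine synthesis, was the 1 that fell (-0.53), a call lost with library totals (adjusted p = 0.121).

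Of 37 neurotransmitter receptors and their helpers, 34 rose (91.9%) and 1 fell, at a median of 2.29. Over all tested genes 35.2% rose, with 49.9% under 1 CPM and 57.7% at 1 to 10 CPM. glr-1, a glutamate receptor of command interneurons, had 16.1, 13.8 and 8.12 CPM in the libraries labelled met-2, against 0.311, 0.241 and 0.164 CPM in N2, and rose by 5.68 log2 units (SE 0.36, adjusted p = 2.63e-05). glr-5, another glutamate receptor subunit, rose by 5.25 log2 units (SE 0.40, adjusted p = 6.74e-05). The gene that fell was unc-50 (-1.08), a Golgi protein needed for receptor assembly and not a receptor. Of 23 innexins, the proteins of gap junctions in invertebrates, 17 rose (73.9%) and 2 fell. inx-18 had 6.0, 5.23 and 2.49 CPM in the libraries labelled met-2, against 0.207, 0.134 and 0.409 CPM in N2, and rose by 4.18 log2 units (SE 0.54, adjusted p = 2.98e-04). The 2 that fell, inx-14 (-0.80) and inx-22 (-0.95), are the innexins of germ cells and oocytes.

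Genes of matrix and cell junctions mostly rose. Of all tested genes 35.2% rose. Among protein-coding genes whose exons cover 4000 bases or more, 70.7% rose at 10 to 100 CPM and 22.4% at 100 CPM or more. Whether the lists of matrix and junctions differ from genes of like level and length was not tested. Of 27 basement membrane genes, 25 rose and 1 fell, at a median of 1.34, and their summed level was 14890 to 18640 CPM in the libraries labelled met-2, against 7431 to 9086 CPM in N2. fbl-1, the matrix protein fibulin, had 28.9, 26.2 and 14.3 CPM in the libraries labelled met-2, against 0.788, 0.482 and 0.409 CPM in N2, and rose by 5.34 log2 units (SE 0.41, adjusted p = 5.80e-05). sdn-1, the heparan sulfate proteoglycan syndecan, fell by 0.53 log2 units (SE 0.11, adjusted p = 6.34e-04). Of 27 genes of adherens junctions and hemidesmosomes, 17 rose and none fell. The highest were the intermediate filament genes ifc-1 (5.11) and ifa-1 (4.98), and ifa-1 had 26.6, 31.5 and 11.9 CPM in the libraries labelled met-2, against 0.872, 0.776 and 0.546 CPM in N2. Of 31 genes of the apical matrix and of molting, 22 rose and 1, egg-6 (-0.91), fell. qua-1, a hedgehog-related protein of molting, had 56.8, 41.5 and 26.6 CPM in the libraries labelled met-2, against 3.26, 4.61 and 1.09 CPM in N2, and rose by 3.80 log2 units (SE 0.69, adjusted p = 2.62e-04).

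Proteases of the lysosome had the highest median of the lists. Of 16 tested cathepsin genes, 14 rose and 1, cpr-3 (-0.81), fell, at a median of 3.06. asp-6, an aspartyl protease, had 21.4, 30.4 and 12.4 CPM in the libraries labelled met-2, against 0.166, 0.107 and 0.0819 CPM in N2, and rose by 7.42 log2 units (SE 0.42, adjusted p = 5.04e-05). asp-5 had 15.7, 18.2 and 8.16 CPM in the libraries labelled met-2, against 0.104, 0.0803 and 0.0546 CPM in N2, and rose by 7.37 log2 units (SE 0.38, adjusted p = 2.41e-05). The fall of cpr-3 was lost without library a or b labelled met-2 (adjusted p = 0.117 and 0.128) or N2 library a (0.129). Of 20 genes of fatty acid synthesis, elongation and desaturation, 10 rose (50%) and 2 fell (10%), beside 35.2% and 29.6% over all genes. elo-5, an elongase for branched fatty acids, had 2.55, 2.11 and 2.67 CPM in the libraries labelled met-2, against 0.0208, 0.241 and 0.164 CPM in N2, and rose by 4.14 log2 units (SE 0.58, adjusted p = 9.39e-05). fat-6, a stearoyl-CoA desaturase, rose by 2.50 log2 units (SE 0.38, adjusted p = 3.43e-04). The elongase gene elo-1 fell by 1.64 log2 units (SE 0.09, adjusted p = 5.27e-05). The desaturase gene fat-1 fell by 0.48 log2 units (SE 0.14, adjusted p = 0.0183), and without library a or b labelled met-2 or N2 library c it was not called (adjusted p = 0.126, 0.158 and 0.0609).

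Signalling genes held calls in both directions, beside 35.2% rises and 29.6% falls over all tested genes. Of 19 TGF-beta pathway genes, 10 rose (52.6%) and 2 fell (10.5%). The co-receptor gene drag-1 rose by 3.36 log2 units (SE 0.37, adjusted p = 8.16e-05), and daf-7, the ligand of the dauer pathway, had 9.10, 9.28 and 6.52 CPM in the libraries labelled met-2, against 1.27, 1.02 and 0.519 CPM in N2, and rose by 3.13 log2 units (SE 0.40, adjusted p = 2.61e-05). The 2 that fell were daf-3 (-0.49), a Smad, and sma-9 (-0.40), and neither was called with library totals. daf-3 was not called without library a labelled met-2 or N2 library b or c, and with 1 library left out sma-9 was called in no fit other than that without library b labelled met-2. Of 32 genes of axon guidance and cell migration, 17 rose (53.1%) and 5 fell (15.6%). madd-4, a secreted guidance cue, had 49.5, 48.2 and 25.9 CPM in the libraries labelled met-2, against 1.99, 2.14 and 0.819 CPM in N2, and rose by 4.63 log2 units (SE 0.52, adjusted p = 3.41e-05). The kinase gene unc-51 (-1.45) and the Rac gene ced-10 (-1.09), which act inside cells, were the lowest. Of 25 genes of EGF, FGF and Ras signalling, 4 rose (16%) and 10 fell (40%), against 9 rises and 7 falls with library totals. The risers were the FGF receptor gene egl-15 (3.23), the FGF gene let-756 (1.93), the EGF receptor gene let-23 (1.20) and rom-1 (0.70), a rhomboid. The lowest were let-60, which encodes Ras, with 55.8, 84.4 and 65.8 CPM in the libraries labelled met-2 against 166, 139.9 and 149 CPM in N2 (-1.14 log2 units, SE 0.19, adjusted p = 1.12e-04), and the Raf gene lin-45 (-1.05). Without library c labelled met-2, 7 genes of this list were called higher.

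**Figure D3:**
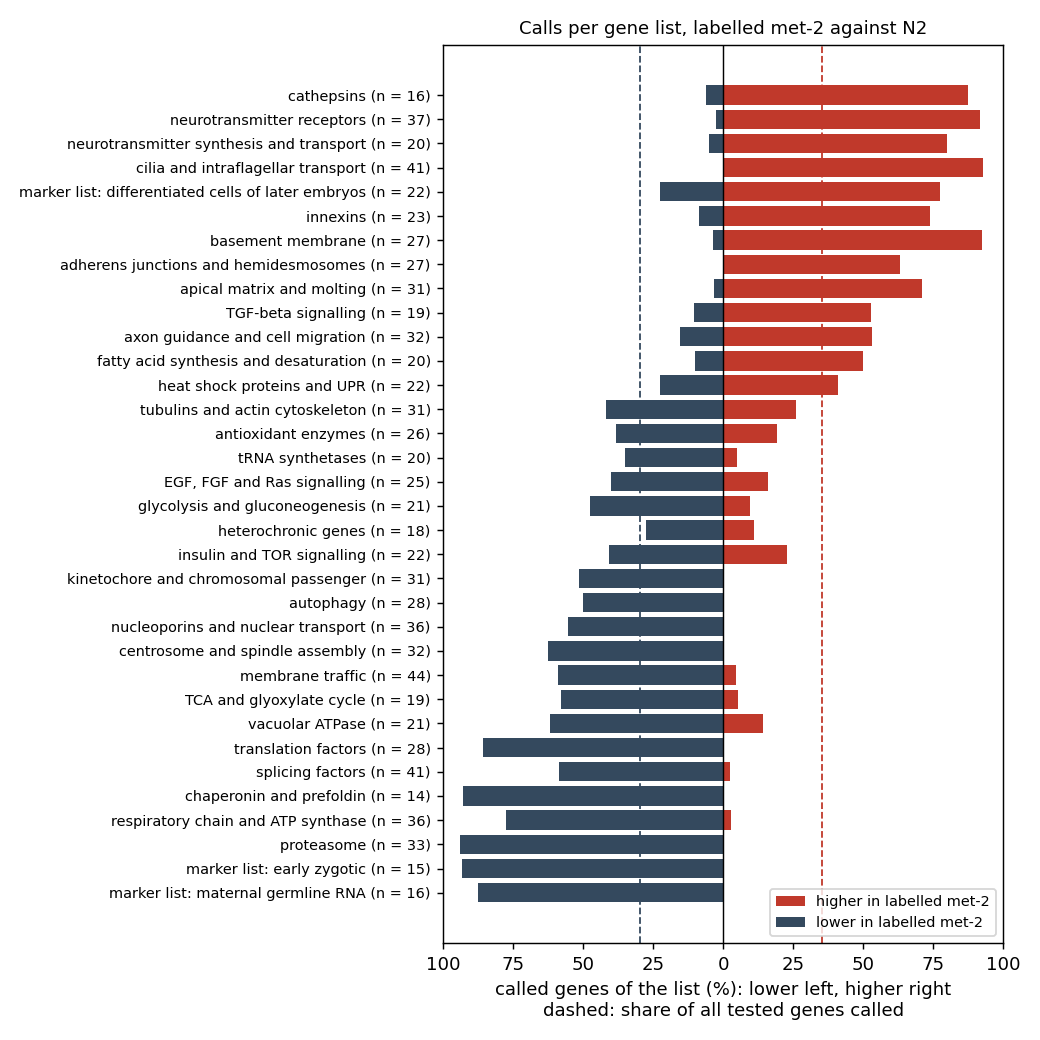
Share of the tested genes of each list that rose (to the right) or fell (to the left) in the libraries labelled met-2 against N2, with the number tested in brackets; dashed lines are the shares over all tested genes, 35.2% and 29.6%. Lists run from the highest median log2 change at the top, with 14 of 16 cathepsins higher, to the maternal germline markers at the bottom, with 14 of 16 lower.

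Most proteasome, chaperonin and translation factor genes fell. Of all tested genes 29.6% fell, and of those at 100 CPM or more 51.2%. At that level, 66.0% of protein-coding genes whose exons cover 1000 to under 2000 bases fell. Whether these lists differ from genes of like level and length was not tested. Of 33 subunits of the proteasome, which degrades ubiquitinated proteins, 31 fell and none rose, at a median of -0.87. pas-6, a subunit of the core particle, had 48.7, 43.5 and 42.4 CPM in the libraries labelled met-2, against 151, 169.8 and 208 CPM in N2, and fell by 1.98 log2 units (SE 0.15, adjusted p = 5.20e-06). The summed level of the list was 3840 to 4620 CPM in the libraries labelled met-2, against 7350 to 8354 CPM in N2, so every library labelled met-2 stood below every N2 library. Of 14 subunits of the chaperonin and of prefoldin, which fold new actin and tubulin, 13 fell, led by pfd-3 (-2.28 log2 units, SE 0.04, adjusted p = 1.57e-07). Of 28 translation factors, 24 fell and none rose, and 15 were called lower without library b labelled met-2 and 12 with library totals. inf-1, the helicase eIF4A, had 164, 197 and 187 CPM in the libraries labelled met-2, against 762, 615 and 765 CPM in N2, and fell by 1.97 log2 units (SE 0.13, adjusted p = 1.74e-06). Of 20 tRNA synthetases 7 fell (35%, near the 29.6% of all genes), 12 were not called and 1, iars-1, rose (0.32). Calls in that list turned on the library and scaling, with 4 lower without library a or b labelled met-2 or N2 library c, and 7 higher and 1 lower under library totals.

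Energy metabolism genes gave more falls than rises, with 47.6 to 77.8% of each list lower. Of all tested genes 29.6% fell, and of those at 100 CPM or more 51.2%. Of 36 genes of the respiratory chain and ATP synthase, 28 fell, 1 rose and 7 were not called, at a median of -0.87. mev-1, which encodes a subunit of succinate dehydrogenase, had 13.8, 17.7 and 16.9 CPM in the libraries labelled met-2, against 59.1, 51.1 and 68.1 CPM in N2, and fell by 1.88 log2 units (SE 0.16, adjusted p = 1.74e-06). sdhd-1, another subunit of that complex, fell by 1.89 log2 units (SE 0.17, adjusted p = 1.38e-05). The 1 that rose, nuo-4 (0.31, adjusted p = 0.0228), was not called without library a or c labelled met-2 or N2 library a or c. Of 19 genes of the tricarboxylic acid and glyoxylate cycles, 11 fell, 7 were not called and 1, idhg-2 (1.74), rose, and the lowest was the malate dehydrogenase gene mdh-2 (-2.01 log2 units, SE 0.17, adjusted p = 7.75e-06). In glycolysis and gluconeogenesis, 10 of 21 genes fell and 2 rose. aldo-2, an aldolase, had 206, 180.2 and 217 CPM in the libraries labelled met-2, against 496, 543 and 654 CPM in N2, and fell by 1.49 log2 units (SE 0.14, adjusted p = 1.14e-05). pck-1, a phosphoenolpyruvate carboxykinase and thus an enzyme of gluconeogenesis, went the other way with 151, 157 and 97.2 CPM in the libraries labelled met-2, against 20.2, 18.5 and 9.36 CPM in N2 (3.07 log2 units, SE 0.41, adjusted p = 3.36e-04). With library totals the list had 5 rises and 7 falls, and its median was 0.05 in place of -0.22.

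Genes of nuclear and mitotic machinery gave more falls than rises, with 51.6 to 62.5% of each list lower. Over all tested genes 29.6% fell, with 45.2% at 10 to 100 CPM and 51.2% at 100 CPM or more. Whether these lists differ from other genes of like level was not tested. Of 41 splicing factors, 24 fell and 1, prp-6, rose (0.42, not called without N2 library b, adjusted p = 0.0513). snr-6, a core protein of spliceosomal particles, had 100.2, 79.3 and 78.0 CPM in the libraries labelled met-2, against 338, 530.1 and 507 CPM in N2, and fell by 2.42 log2 units (SE 0.24, adjusted p = 6.19e-06). Of 36 genes of nuclear pores and transport, 20 fell and none rose, led by ran-4 (-2.12) and the GTPase gene ran-1 (-1.74 log2 units, SE 0.13, adjusted p = 8.89e-06). Centrosome and spindle genes gave 20 falls and no rise among 32, and tac-1, which stabilizes astral microtubules, had 29.4, 31.5 and 36.1 CPM in the libraries labelled met-2, against 101, 100.5 and 122 CPM in N2 (-1.74 log2 units, SE 0.13, adjusted p = 4.81e-06). Among 31 genes of kinetochores and the chromosomal passenger complex, 16 fell and none rose, led by bir-1 (-1.78), which encodes survivin, and the securin gene ify-1 (-1.60). These counts leaned on single libraries. Without library a labelled met-2 the falls were 12 for nuclear transport, 13 for centrosomes and 10 for kinetochores, and without library b the centrosome count was 12. Library totals gave 11, 10 and 9 falls for these lists in the same order, beside 4, 7 and 3 rises.

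Genes of membrane traffic, autophagy and the vacuolar proton pump gave more falls than rises, with 59.1%, 50% and 61.9% lower. Of all tested genes 29.6% fell, and of those at 100 CPM or more 51.2%. Of 44 genes of membrane traffic, 26 fell and 2 rose, and 17 were called lower with library totals. rab-11.1, the GTPase of recycling endosomes, had 68.8, 88.3 and 62.3 CPM in the libraries labelled met-2, against 383, 358 and 377 CPM in N2, and fell by 2.35 log2 units (SE 0.15, adjusted p = 5.32e-07). The 2 that rose were rab-3 (3.11), the GTPase of synaptic vesicles, and the exocyst gene sec-6 (0.38). Of 28 autophagy genes, 14 fell and none rose, with -2.41 for lgg-3 and -1.54 for lgg-2, ubiquitin-like proteins of the pathway. Of 21 subunits of the vacuolar proton pump, 13 fell and 3 rose, and the 3 that rose, vha-5, vha-6 (4.48) and unc-32 (0.65), are all versions of the same membrane subunit. vha-8, the E subunit of the pump, had 69.6, 85.1 and 72.2 CPM in the libraries labelled met-2, against 198, 215 and 208 CPM in N2, and fell by 1.45 log2 units (SE 0.10, adjusted p = 2.55e-06).

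Other lists held calls in both directions. Of 22 heat shock and unfolded-protein genes, 9 rose (40.9%) and 5 fell (22.7%), shares close to the 35.2% and 29.6% over all genes. The inducible gene hsp-70 had 38, 61.6 and 35.9 CPM in the libraries labelled met-2, against 7.59, 6.77 and 4.50 CPM in N2, and rose by 2.84 log2 units (SE 0.34, adjusted p = 7.51e-06). hsp-1, the constitutive cytosolic Hsp70, fell by 1.25 log2 units (SE 0.07, adjusted p = 1.17e-04), and its mitochondrial relative hsp-6 fell by 1.03 log2 units (SE 0.08, adjusted p = 5.85e-05). The endoplasmic reticulum chaperone gene cnx-1 rose by 0.61 log2 units (SE 0.11, adjusted p = 3.91e-04). Of 31 tubulin and actin-regulating genes, 8 rose (25.8%) and 13 fell (41.9%), with 12 each way under library totals. The calls ran from 4.24 for tba-5, a tubulin of cilia, to -2.68 for pfn-1. Of 26 antioxidant genes, 5 rose (19.2%) and 10 fell (38.5%). The balance turned to 9 rises and 6 falls with library totals and to 7 rises and 6 falls without library c labelled met-2, and without library b it was 4 and 6. prdx-2, a peroxiredoxin, had 152, 153 and 179 CPM in the libraries labelled met-2, against 763, 788 and 950.5 CPM in N2, and fell by 2.37 log2 units (SE 0.13, adjusted p = 2.85e-06). Of 22 genes in the insulin and TOR list, 5 rose (22.7%) and 9 fell (40.9%), against 7 rises and 4 falls with library totals. The 2 highest, daf-9 (3.11) and daf-36 (2.20), encode enzymes of dafachronic acid synthesis, not of insulin or TOR signalling itself. raga-1, a Rag GTPase that activates TOR, fell (-1.14). Of 18 heterochronic genes, 2 rose, lin-14 and the nuclear receptor gene daf-12 (2.45), and 5 fell (27.8%, near the share over all genes), with lin-29 (-1.36) and puf-9 (-1.03) lowest. Under library totals the medians of the tRNA synthetase, tubulin and actin, EGF and Ras, heterochronic and antioxidant lists turned positive, at 0.05 to 0.10, and that of the insulin and TOR list was -0.01 in place of -0.28.

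Transcript length moved with the calls. Among protein-coding genes with a mean of 100 CPM or more, 240 of 290 whose exons cover at least 500 and under 1000 bases fell (82.8%), against 74 of 415 whose exons cover 4000 bases or more (17.8%). Between 10 and 100 CPM, 688 of 1034 genes of that length fell and 74 rose, while 17 of 222 genes of 4000 bases or more fell and 157 rose. The lists lay on both sides. Median exon length was 952 bases for the respiratory chain and 1235 for the proteasome, where most members fell, and 4116 for the basement membrane and 2313 for cilia, where most rose, against 1434 over all tested protein-coding genes. The cathepsins, most of which rose, were short at 1250 bases, and the nuclear transport genes, more of which fell, were long at 3004 bases. The part of transcript length in the results was not tested.

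By chromosome, the X held the largest share of rises and the smallest of falls. Of 2030 tested X-linked genes, 1027 rose (50.6%) and 414 fell (20.4%), at a median log2 change of 0.59. Chromosome V followed with 42.2% rises, and chromosomes I and III had 26.5% and 26.6%, with 35.2% and 36% falls. The order of X above I in rises was the same with library totals, at 58.4% and 35.7%. With each chromosome divided into 3 parts of equal length, 30.1% of autosomal genes in the outer parts rose and 31.8% fell, against 35.5% and 31.2% in the middle parts. Methylation of H3 lysine 9 is known to be densest on the chromosome arms. On the X, 46.8% rose in the outer parts and 57.4% in the middle part. Whether these shares differ beyond what level and function of the genes on each chromosome give was not tested.

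**Figure D4:**
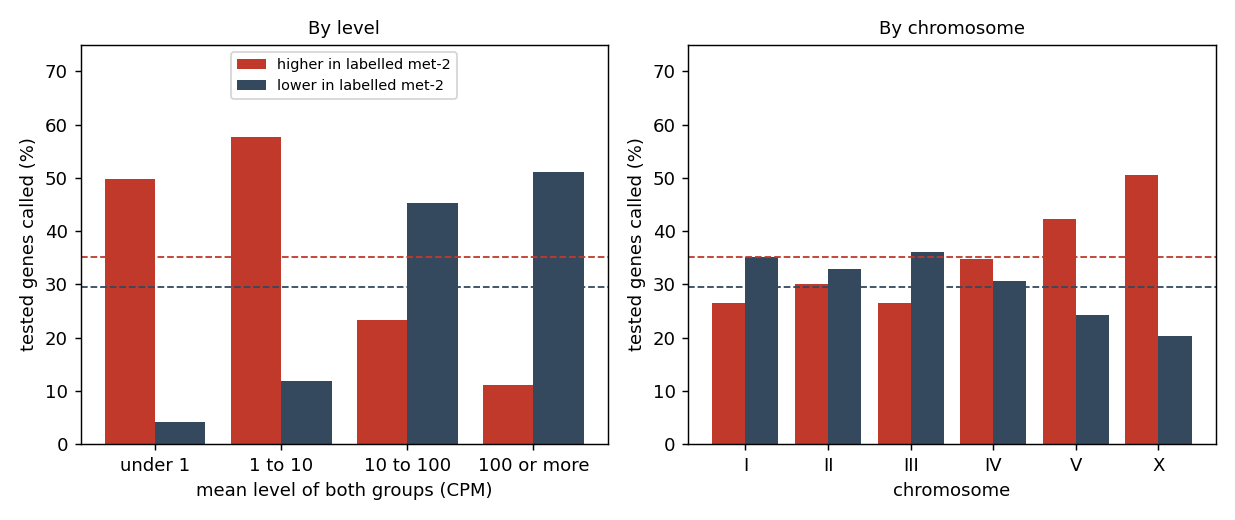
Share of tested genes that rose or fell in the libraries labelled met-2 against N2, by mean CPM over both groups (left) and by chromosome (right); dashed lines are the shares over all tested genes, 35.2% higher and 29.6% lower. Falls went with level, at 51.2% of genes of 100 CPM or more and 4.09% of genes under 1 CPM, and the X chromosome had 50.6% rises.

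Short non-coding RNAs and pseudogenes were in the gene table too. By annotated class, 12 of 31 tested small nuclear RNA genes fell (38.7%) and 1 rose (3.23%). Of 110 small nucleolar RNAs 28 fell (25.5%) and 10 rose (9.09%), and of 29 tRNA genes 9 fell (31.0%) and 2 rose (6.90%). The falls of the last 2 classes were at shares close to the 29.6% over all genes, and the rises of all 3 were below 35.2%. Of 466 tested pseudogenes, 103 rose (22.1%) and 48 fell (10.3%). The small nuclear RNA class took 0.0118, 0.0127 and 0.0138% of gene counts in the libraries labelled met-2, against 0.0545, 0.0303 and 0.0157% in N2. The groups did not overlap, but N2 library a stood far above N2 library c, so the spread within N2 exceeded the gap between its lowest library and the labelled group.

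Summed repeat RNA had a lower mean in the libraries labelled met-2, and the direction of that difference rested on 1 family. Repeat counts per 100 gene counts were 1.14, 1.10 and 0.981 in the libraries labelled met-2, against 1.18, 1.35 and 1.16 in N2, with means of 1.07 ± 0.0807 in the libraries labelled met-2 and 1.23 ± 0.101 in N2 (SD, n = 3 each). The difference of -0.158 had p = 0.1 in a two-sided exact permutation test over libraries, the smallest p that 3 against 3 can give. CELE45, a family picked out after its values were seen, had 2966, 1373 and 1684 CPM in the libraries labelled met-2, against 5980, 8111 and 6002 CPM in N2, and fell by 1.74 log2 units (SE 0.36, adjusted p = 3.14e-04). It took 13.6 to 28.3% of repeat counts in the libraries labelled met-2, against 46.1 to 54.5% in N2. All other families together summed to 7515, 8736 and 7244 CPM in the libraries labelled met-2, against 6932, 6773 and 7026 CPM in N2. Without CELE45 the groups stood in the reverse order with no overlap, at a difference of 0.229 counts per 100 gene counts (exact permutation p = 0.1). In the double mutant CELE45 stood at 5838 ± 488 CPM (SD, n = 3), 1.54 higher on the log2 scale than in the libraries labelled met-2 (adjusted p = 4.29e-04).

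Of 257 repeat families tested, 89 rose (34.6%) and 25 fell (9.73%), with a median log2 change of 0.39. The tables do not give where the counted copies lie, so RNA of an element and RNA of a gene that holds a copy cannot be told apart. The counts depended on scaling and on single libraries. TMM scaling within the repeat table gave 44 rises and 47 falls, library totals gave 139 and 17, and without N2 library b or c 54 and 55 families rose. Among 69 DNA transposon and inverted-repeat families, 35 rose and 4 fell, at a median of 0.49. Tc1A, of the Tc1 type of mobile element, averaged 33.7 ± 4.86 CPM in the libraries labelled met-2 and 18.8 ± 0.915 CPM in N2, and rose by 0.84 log2 units (SE 0.12, adjusted p = 0.00229). The 4 that fell included IR4, with 68.8, 66.3 and 59.3 CPM in the libraries labelled met-2 against 109, 173 and 129 CPM in N2 (-1.08 log2 units, SE 0.21, adjusted p = 0.00180), and PALTA3_CE (-0.95). Of 31 CELE, CeRep and CERP families 16 rose, and CELE45 was the 1 that fell. CELE46A had 205, 273 and 216 CPM in the libraries labelled met-2, against 134, 127 and 122 CPM in N2, and rose by 0.86 log2 units (SE 0.13, adjusted p = 9.17e-04).

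Among retrotransposons, calls went both ways. Of 38 LTR families 8 rose and 5 fell, at a median of 0.15. The internal part of CER17 (CER17-I_CE) had 1.22, 1.29 and 0.997 CPM in the libraries labelled met-2, against 0.643, 0.509 and 0.164 CPM in N2, and rose by 1.38 log2 units (SE 0.52, adjusted p = 0.0161), a call lost without library b labelled met-2 (adjusted p = 0.0506) or N2 library c (0.0559). CER16-I_CE had 0.196, 0.287 and 0.214 CPM in the libraries labelled met-2, against 1.14, 0.803 and 1.17 CPM in N2, and fell by 2.14 log2 units (SE 0.21, adjusted p = 9.17e-04), while the CER7 terminal repeat CER7-LTR_CE fell by 1.46 log2 units (SE 0.19, adjusted p = 2.92e-05). Of 11 non-LTR families 3 rose (LINE2E_CE, LINE2G_CE and SINE1_CE) and 1, LINE2D_CE, fell (-0.83, adjusted p = 0.00281). Of 7 Helitron families HelitronY2_CE rose (0.48) and HelitronY1A_CE fell (-0.43). The calls of LINE2G_CE, SINE1_CE and both Helitrons were lost without N2 library c, and all but that of SINE1_CE also without N2 library b. Neither of the 2 satellites was called, with MINISAT1_CE at 117 ± 14.2 CPM in the libraries labelled met-2 and 94.3 ± 6.84 CPM in N2 (0.31 log2 units, SE 0.12, adjusted p = 0.147), and MSAT1_CE at 0.53 log2 units (SE 0.34, adjusted p = 0.0955). Telomere-type repeats were near the threshold and overlapped between groups. (GCCTAA)n changed by 0.60 log2 units (SE 0.25, adjusted p = 0.0431), a call that held in no fit with 1 library left out other than that without library c labelled met-2, and (TTAGGC)n was at 0.52 log2 units (SE 0.30, adjusted p = 0.0833).

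The 10 highest log2 changes among called families without overlap were those of simple repeats, low-complexity tracts and CER17-I_CE, and several rest on few counts. The name gives the repeated unit. (TAG)n, the highest, had 1.73, 10.03 and 10.7 CPM in the libraries labelled met-2, against 0.477, 0.348 and 0.300 CPM in N2 (4.29 log2 units, SE 0.86, adjusted p = 2.36e-04), and library a of the labelled group stood well below b and c. (CAATC)n had 8.0, 2.76 and 4.34 CPM in the libraries labelled met-2, against 1.04, 1.47 and 1.01 CPM in N2 (2.10 log2 units, SE 0.47, adjusted p = 5.27e-04), and (CGGGA)n rose by 1.66 log2 units (SE 0.21, adjusted p = 9.71e-05). The others of the 10 highest besides CER17-I_CE were polypurine tracts (2.80), which rest on 10 counts in each library labelled met-2 and 1 to 3 in N2, (CCGTA)n (2.19), (ATTG)n (1.69), (CACCAT)n (1.57), polypyrimidine tracts (1.56) and (CAA)n (1.56).

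The falls included some repeats with purines alone on one strand and pyrimidines alone on the other, although polypurine and polypyrimidine tracts rose, as given above. (TC)n had 40.6, 66.7 and 62.7 CPM in the libraries labelled met-2, against 297, 198 and 299 CPM in N2, and fell by 2.22 log2 units (SE 0.30, adjusted p = 3.69e-06). (GA)n, the same unit read on the opposite strand, had 22.4, 33.6 and 30.3 CPM in the libraries labelled met-2, against 121, 126 and 154 CPM in N2, and fell by 2.22 log2 units (SE 0.20, adjusted p = 1.54e-06). The low-complexity class GA-rich, named after its values were seen, fell by 1.45 log2 units (SE 0.15, adjusted p = 6.47e-06). CT-rich fell by 0.47 log2 units (SE 0.18, adjusted p = 0.0266), a call lost with library totals and without library a labelled met-2 or N2 library a or c. For these families every library labelled met-2 was below every N2 library, which in part follows from how they were chosen. (TC)n and (GA)n were named under a rule that asked for no overlap, and GA-rich and CT-rich after their values were seen. (CAG)n had 4.59, 7.78 and 6.80 CPM in the libraries labelled met-2, against 35.8, 27.7 and 42.0 CPM in N2, and fell by 2.46 log2 units (SE 0.29, adjusted p = 1.54e-06). (GGGAA)n (-2.71) and (CTACT)n (-2.22) fell as well, and (CTACT)n had 1 or 2 counts in each library labelled met-2. With 1 library left out, polypyrimidine tracts, (CAA)n and (CTACT)n each lost their call in at least 1 fit.

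**Figure D5:**
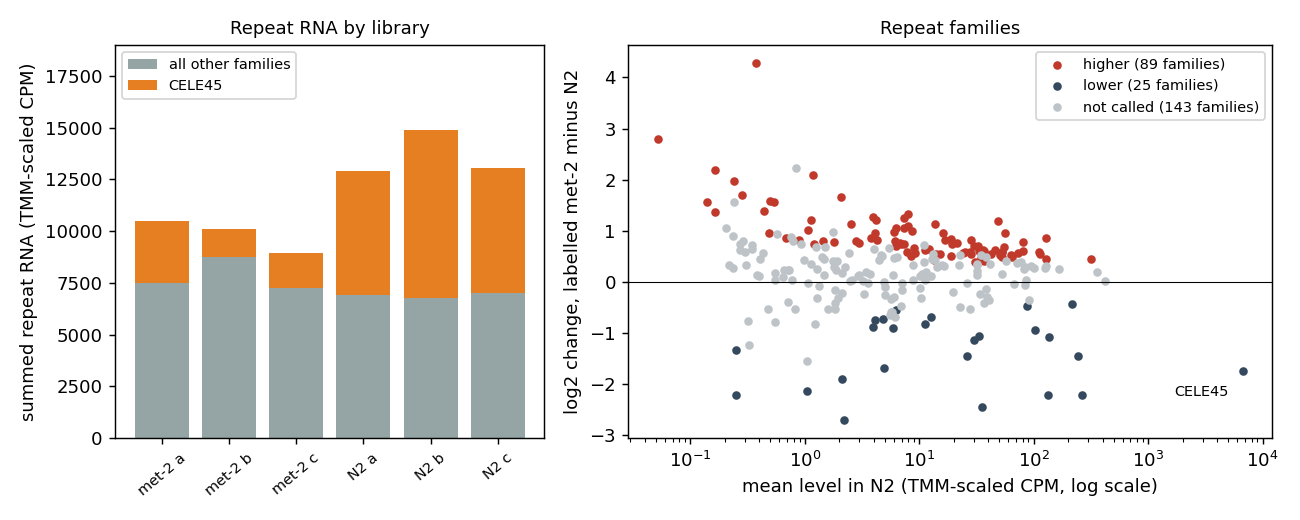
Left, summed repeat RNA in TMM-scaled CPM in each library, divided into the family CELE45 and all other families; right, log2 change of the 257 tested families against their mean level in N2 (log axis), coloured by call. CELE45 stood at 1373 to 2966 CPM in the libraries labelled met-2, against 5980 to 8111 CPM in N2, and is the family with the highest level in both groups.

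The same items can be read in the other mutants. The comparisons with N2 share the N2 libraries, so values are given side by side. hmg-1.1 differed from N2 by -2.84 in the libraries labelled met-2, by -2.40 in set-25 (adjusted p = 8.97e-06) and by 0.09 in the double mutant (adjusted p = 0.783). wip-1 differed by -3.34 in the libraries labelled met-2, by -3.48 in set-25 (adjusted p = 3.46e-06) and by -0.03 in the double mutant (adjusted p = 0.940). lec-5 differed by 6.0 in the libraries labelled met-2 and by 3.56 in the double mutant (adjusted p = 0.00696), against 4.69 in the set-25 libraries (adjusted p = 1.85e-04). The direct difference of the double mutant from the libraries labelled met-2 was -2.44 for lec-5 (adjusted p = 0.00360), 2.93 for hmg-1.1 (adjusted p = 2.84e-06) and 3.31 for wip-1 (adjusted p = 4.82e-06). (TC)n was 1.98 higher in the double mutant than in the libraries labelled met-2 (adjusted p = 7.46e-06). Against N2, (TC)n differed by -2.38 in set-25 (adjusted p = 1.23e-06) and by -0.25 in the double mutant (adjusted p = 0.534). CELE45 differed from N2 by -0.58 in set-25 (adjusted p = 0.159) and by -0.20 in the double mutant (adjusted p = 0.756).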

How the data were processed

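RNA of early embryos was sequenced after depletion of ribosomal RNA, with a TruSeq Standard mRNA kit per the labels' protocols. The authors deposited a table of read counts per gene and a table of read counts per repeat family, with 12 library columns each. For the aligner, counter, strand setting and genome build, names were not given in the sources used here. RNA of overlapping or antisense genes and of near-identical copies therefore cannot be told apart. Of 27904 genes in the table, 27163 (97.3%) were matched to the WBcel235 annotation for names, classes, exon lengths and coordinates.

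Counts of all 12 libraries were fitted with the robust quasi-likelihood model of edgeR 4.0.16 (R 4.3.3, limma 3.58.1) on genotype, after TMM scaling and filterByExpr, and the contrast was met-2 minus N2 with Benjamini-Hochberg adjustment at 0.05. The 257 repeat families that passed the filter, of 392, had a fit of their own that took its scaling from the gene table. Standard errors come from the log2 CPM of the 3 libraries a group with a prior count of 2. Repeat share was compared by a two-sided exact permutation test. The procedure was tested on simulated counts with far fewer changed genes than were called here, and with rises and falls of like size. That setting cannot show how the scaling behaves where most genes change.

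The genes and families, lists and tests were chosen with earlier results of these data known. Of 952 listed names, 20 were not matched. Named genes were the 10 highest and 10 lowest log2 changes outside large families and the 5 largest gains and 5 largest losses in CPM, among called genes with a symbol, a change of at least 2-fold, a mean of at least 1 CPM in both groups and no overlap between groups. They also include the 2 most changed genes of each list in each direction and the 10 highest and 6 lowest repeat families. These too were taken among called genes or families without overlap between groups. Items singled out after their values were seen are CELE45, GA-rich, CT-rich, Tc1A, CER7-LTR_CE, IR4, PALTA3_CE, CELE46A, the named Helitrons, LINEs, SINE1_CE, satellites and telomere-type repeats, and let-23, rom-1, unc-32, unc-119, lin-26 and elt-2. Alternatives were library totals, RLE size factors for the genes, DESeq2 1.42.0 with its size factors, no filter and the 6 libraries alone. Others were thinning to 16929810 counts, TMM within the repeats and leaving out each library. Leaving CELE45 out of the repeat share and thinning the repeats were chosen after seeing the data. Gene counts ranged between 23543963 and 52683919 per library compared, and lower totals in the libraries labelled met-2 leave their low values with the larger counting error.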

Additional observations from a re-analysis of the deposited data

How the results depend on the processing

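Scaling was the choice that moved the counts of calls most. With library totals alone, 2440 genes were called lower in the libraries labelled met-2 against 4219 with TMM scaling, 139 repeat families were called higher against 89, and the log2 change of met-2 RNA was 0.00466. TMM within the repeat table gave 44 families higher and 47 lower, against 89 and 25. Leaving out 1 library at a time, the number of repeat families called higher ran between 54 and 103, with 54 without N2 library b and 55 without N2 library c, and the change of met-2 RNA ran between -0.401 and -0.0923. Without CELE45 the difference in repeat counts per 100 gene counts was 0.229 in place of -0.158. The causes were not tested. For the log2 changes of named genes and families and the counts of calls per list, the alternatives gave 2808 values with the same call or a count within 1.5 times, 70 counts that moved further, 70 calls lost and 5 gained, and no log2 change of a called gene or family changed sign. With library totals the balance of calls turned to more rises than falls for the tRNA synthetase, EGF and Ras, insulin and TOR, and antioxidant lists. The lower depth of the libraries labelled met-2 limits the calls among RNAs of a few counts. No paired analysis was possible because the columns carry letters, the titles carry numbers, and no label ties the libraries of different genotypes to each other.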
